A study of Homo sapiens with 54 samples.

Results

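Untreated MDA-MB-231 cells of 2 batches were compared with each other. MDA-MB-231 is a human breast cancer line, obtained from ATCC, that lacks the estrogen and progesterone receptors and carries a mesenchymal programme. The 6 libraries, of 54 in the series, were chosen by their labels alone and comprise 3 untreated (UT) replicates harvested at 48 h and labelled batch 1, and 3 untreated replicates harvested at 48 h and labelled batch 2. Both groups received no drug and, per the growth protocol, the same DMEM with fetal bovine serum. The labels do not say what a batch shares, so that culture, RNA extraction, library preparation and sequencing run cannot be told apart here. They also do not say whether replicates were separate cultures, and p-values then measure only the spread between these samples. In the rest of the series, cells were given Compound Kushen Injection (CKI, a plant extract) or mixtures of its components, and 3 CKI libraries at 48 h in each batch (2 mg/ml) gave the same contrast in libraries that the untreated comparison did not use. The comparison asks which genes and programmes differ between batches of one line before any treatment.

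The state of a cell line is set by programmes that respond to its surroundings. The unfolded-protein response raises chaperones of the endoplasmic reticulum (ER) when folding there falls behind. The integrated stress response, through ATF4, raises amino acid supply, NF-kB drives cytokines, and interferon drives antiviral genes. TGF-beta and BMP ligands signal through SMAD proteins to matrix, adhesion and ID genes.

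Total counts were between 22033415 and 24708584 reads in batch 1 and between 23373761 and 25453736 in batch 2, and 17819 to 18018 and 18086 to 18205 genes had a count. Levels are given in CPM, reads scaled to the TMM-normalized library size, and a gene was called DE (differentially expressed) at an adjusted p-value under 0.05 in the quasi-likelihood test of edgeR, adjusted by Benjamini-Hochberg over all genes tested. The 8 genes used as markers of the line were all present, 6 of them DE and higher in batch 2 and 1 lower. The lower one was KRT18, a keratin, with 12394 to 13647 reads per library in batch 1 and 9171 to 10703 in batch 2. VIM (vimentin) was at 1187 ± 36.9 and 1434 ± 31.6 CPM (SD, n = 3) in batches 1 and 2, and CAV1 (caveolin) at 701 ± 18.7 and 712 ± 49.6 CPM. ESR1, PGR and CDKN2A (the last deleted in this line) had at most 1 read per gene and library in batch 1 and at most 7 in batch 2. No marker of HEK-293 or of colon epithelium exceeded 4 reads in any of the 6 libraries. Of 5 glial markers GFAP alone was tested, and it fell by 1.14 on the log2 scale. Those not tested went both ways. BCAN had 0 to 4 reads per library in batch 1 and 7 to 10 in batch 2. SOX2 had 10 to 11 and 3 to 8, PTPRZ1 had 1 to 2 and 1 to 7, and OLIG2 had none. In batch 2 alone, 3 genes typical of fibroblasts had 14 to 30 reads per library, and their values are given at the end.

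The batches differed in a large share of the transcriptome, mostly by small amounts. Of 14242 genes tested, 8380 (58.8%) were DE, 4135 higher in batch 2 (29.0%) and 4245 lower (29.8%). The median absolute log2 fold change over all genes tested was 0.31, and 981 DE genes changed by 1 or more on the log2 scale, 241 higher and 740 lower. The 3 values of one batch lay outside the range of the other for 65.2% of the genes tested. Every count of a gene group below is to be read against these shares.

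The differences followed the base composition of the transcripts. In the decile of genes with the lowest GC content (below 38.6%) 851 of 1382 genes were DE and higher in batch 2 and 64 lower, with a median log2 fold change of 0.31. In the decile with the highest (above 61.7%) 24 were higher and 1100 lower, with a median of -0.63. Over 13815 genes the Spearman correlation of the log2 fold change was -0.57 with GC content and 0.26 with transcript length, a description across genes of the same 6 libraries. A mean GC content per library was taken over genes from their annotated transcripts, weighted by reads. It was 51.4% to 52.0% in the 3 libraries of batch 1 and 50.3% in each of those of batch 2. This restates the trend from the same counts, and the bases of the reads were not examined. A second fit, chosen after seeing these data, removed a smooth trend of each library in GC content and length (the offset below). It called 7176 of 13815 genes (51.9%), 3826 higher (27.7%) and 3350 lower (24.2%), and 534 genes changed by at least 1 on the log2 scale in both fits, 54.4% of the 981 without and 85.7% of the 623 with the offset. The split at that size moved from 241 higher and 740 lower to 223 higher and 400 lower. What produced the trend was not tested. Values with the offset are given for some genes and lists below, and all others are without it.

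**Figure D1:**
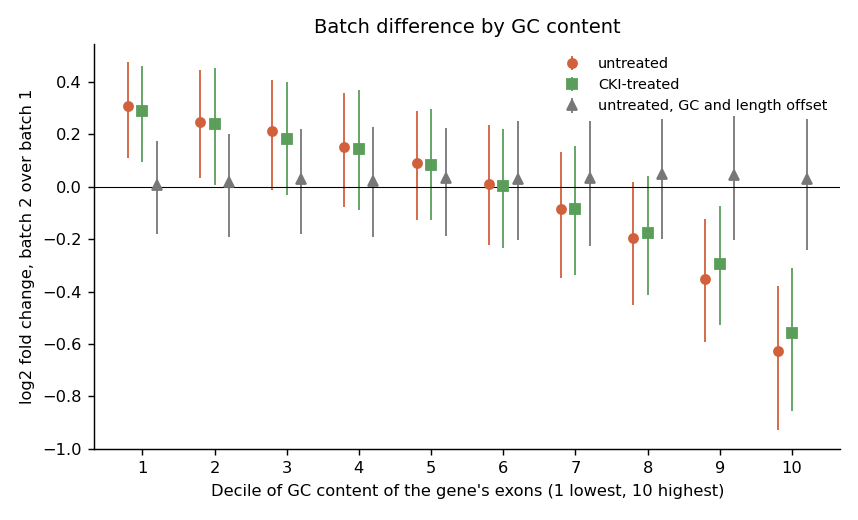
Median log2 fold change of batch 2 over batch 1 (vertical axis) for genes in 10 bins of GC content of their transcripts (horizontal axis), with bars from the 25th to the 75th percentile of genes. From the lowest to the highest bin the medians run from 0.31 to -0.63 in untreated cells and from 0.29 to -0.56 in CKI-treated cells. Those in untreated cells with the offset lie between 0.0053 and 0.047, because the offset was fitted to remove this trend.

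Of genes averaging 10 CPM or more and without overlap between the batches, the 15 with the largest rise and the 15 with the largest fall are described first. LCP1 rose most. LCP1, or L-plastin, bundles actin filaments and is best known from white blood cells. It was at 3.82, 3.64 and 3.48 CPM in batch 1 and 27.5, 22.9 and 28.9 CPM in batch 2, a log2 fold change of 2.85 ± 0.12 (SE; adjusted p = 2.75e-09). RSAD2 (viperin, an antiviral enzyme induced by interferon) was at 4.06, 3.45 and 3.31 CPM in batch 1 and 17.1, 16.7 and 17.2 CPM in batch 2, a log2 fold change of 2.23 ± 0.11. CXCL8, the neutrophil chemokine interleukin 8, was at 25.6, 27.0 and 26.6 CPM in batch 1 and 81.0, 65.1 and 109 CPM in batch 2, a log2 fold change of 1.69 ± 0.14. All 3 genes were higher in every library of batch 2 than in any of batch 1. The secreted or surface proteins among the 15 were EREG (epiregulin, a ligand of the EGF receptor, log2 fold change 1.43), NAMPT (which makes an NAD precursor and is also secreted, 1.44), ENPP4 (a membrane hydrolase of dinucleotides, 1.43), NEO1 (neogenin, a receptor for netrins and repulsive guidance molecules, 1.37) and the membrane proteins TMEM154 (1.44) and TMEM71 (1.42). SLC7A11, which imports cystine for glutathione, was at 39.0, 30.6 and 29.8 CPM in batch 1 and 78.0, 54.9 and 117 CPM in batch 2, with a wide spread in batch 2. The others were POU2F2 (a transcription factor of B cells, 1.46), KDM7A (a histone demethylase, 1.42), SLFN5 (an interferon-responsive Schlafen gene, 1.30), ARRDC3 (an arrestin-like adaptor, 1.29) and BEX2 (1.44).

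The falls were larger. ALPP, the placental alkaline phosphatase, was at 153, 156 and 172 CPM in batch 1 and 2.91, 4.12 and 4.44 CPM in batch 2, a log2 fold change of -5.39 ± 0.11 (SE; adjusted p = 2.27e-12). Its close paralog ALPG fell with it, from 4.19 ± 0.417 to 0.0941 ± 0.0267 CPM (SD, n = 3), and how reads were split between these near-identical genes is uncertain. SPON2, a secreted matrix protein, went from 37.8 ± 4.13 to 5.49 ± 0.255 CPM (SD, n = 3), a log2 fold change of -2.78 ± 0.10. UCA1, a long noncoding RNA first described in bladder cancer, fell by 2.62 on the log2 scale. ANXA8 and ANXA8L1 (annexins, copies that cannot be told apart with certainty) fell by 2.48 and 2.49, and CST1, a secreted inhibitor of cysteine proteases, by 2.41 from a level of 505 ± 48.0 CPM (SD, n = 3). Transport proteins were AQP3 (a water and glycerol channel, log2 fold change -2.41) and SLC15A3 (a lysosomal peptide carrier, -2.29). Transcription factors were IRX3 (-2.40) and SPDEF, a factor of secretory epithelium (-2.31). The rest were SEMA6B (a semaphorin, -2.27), LRP3 (an LDL receptor relative, -2.20), MMP24 (a membrane metalloproteinase, -2.17), LMTK3 (a kinase, -2.40) and SYT12 (a synaptotagmin, -2.36).

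All 30 of these genes were also DE in the same direction with the offset, but the 15 that fell had a median GC content of 60.6% and the 15 that rose one of 39.1%. The offset took the log2 fold change of LMTK3 from -2.40 to -1.40 and that of SEMA6B from -2.27 to -1.42, whereas ALPP (-4.89), UCA1 (-2.62), LCP1 (2.76) and RSAD2 (2.07) moved little relative to their size. The values just outside the 15 were 1.28 for MMP1 and -2.17 for C3. A further 3 genes fell from at least 2 CPM to under 0.2 CPM, as ALPG did. C15orf59 was at 3.49, 4.90 and 5.05 CPM in batch 1 and 0.0767, 0.125 and 0.161 CPM in batch 2. CLDN11, a claudin of tight junctions, was at 2.23, 2.84 and 2.86 CPM in batch 1 and 0.307, 0.0416 and 0.121 CPM in batch 2. SERPINA5, an inhibitor of serine proteases, was at 1.99, 2.75 and 1.70 CPM in batch 1 and 0.153, 0.125 and 0.202 CPM in batch 2. No gene rose from under 0.2 to at least 2 CPM.

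**Figure D2:**
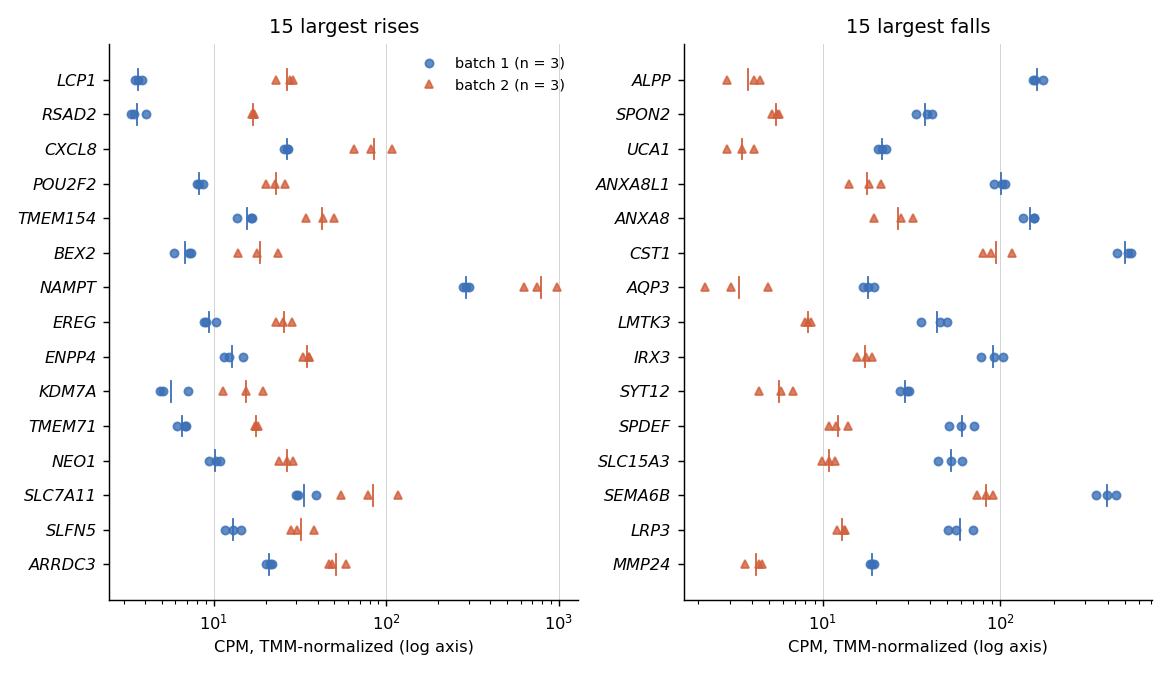
Level in each of the 6 libraries (horizontal log axis, TMM-normalized CPM) for the 15 genes with the largest rise and the 15 with the largest fall in batch 2, with circles for batch 1, triangles for batch 2 and short lines at the means of 3 replicates. The values of the batches do not overlap for any of these genes by the rule that chose them, and ALPP, from 153 CPM or more down to 4.44 CPM or less, shows the widest gap.

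The leading genes were then read in the other libraries of the series, on a common scale over all 54. In the 3 untreated libraries at 24 h of batch 1, LCP1 was at 2.95 to 3.48 CPM and ALPP at 99.5 to 106 CPM. For all 30 genes these 3 libraries lay outside the range of the untreated batch 2 libraries, on the side of batch 1. LCP1, ENPP4, TMEM71 and NEO1 among the rises and 8 of the 15 falls separated all 18, treated ones included, libraries of batch 2 from 33 libraries of batch 1. LCP1 was at 1.74 to 9.05 CPM in those 33 and 23.4 to 64.6 CPM in the 18. ALPP was at 12.5 to 276 and 0.277 to 7.79 CPM. The remaining 3 libraries labelled batch 1 (CKI replicate 1, OO replicate 2 and N_3 replicate 2, all at 24 h), whose columns carry no replicate number, held 17.2 to 23.0 CPM of LCP1 and 2.20 to 10.4 CPM of ALPP, outside the range of the other 33 for both genes. None of the 3 enters the untreated comparison.

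ER chaperones rose as a group. All 19 genes of the list were tested, of which 16 were DE and higher in batch 2 and 0 lower, with a median log2 fold change of 0.68 against 0.0045 over all genes tested. HSPA5 (BiP, the main Hsp70 of the ER) was at 1333, 1255 and 1281 CPM in batch 1 and 2632, 2029.6 and 3798 CPM in batch 2, a log2 fold change of 1.13 ± 0.15 (SE; adjusted p = 3.57e-05). DNAJB9, its co-chaperone, was at 30.6, 28.0 and 31.0 CPM in batch 1 and 66.8, 54.0 and 94.9 CPM in batch 2, a log2 fold change of 1.27 ± 0.15. The lowest library of batch 2 was well above the highest of batch 1 for both genes, and the batch 2 libraries were themselves spread. In all 16 of the genes that rose, replicate 3 of batch 2 was highest and replicate 2 lowest. With the offset the count was 18 higher and 0 lower, and the median 0.61.

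Promoters of this list were read for the ER stress element, the site through which the unfolded-protein response acts on chaperone genes, since its members moved together. The letters searched were CCAAT and, after 9 further bases of any kind, CCACG, on both strands of RefSeq promoters (GRCh38.p14, 250 bases before to 50 after the start). They were found in 6 of 18 ER chaperone promoters with a sequence (33.3%) and in 22 of 27305 promoters overall (0.0806%). Of genes of the list that rose, 4 of 15 promoters held them (26.7%). CALR and CRELD2, which were not called, held them too. The list was chosen for this response, so the shares describe the list and are not evidence on the batches. The counts were made on hg19, and the coordinates here are of GRCh38.p14. Sites of genes that rose are shown, chosen to display the element in named members, with the matched letters in capitals, 5′ to 3′ on the strand that carries them.
HSPA5: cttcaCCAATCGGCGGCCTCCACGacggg (chr9:125241386-125241414, minus strand)
HSP90B1, first site: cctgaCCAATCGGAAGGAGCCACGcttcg (chr12:103930211-103930239, plus strand)
HSP90B1, second site: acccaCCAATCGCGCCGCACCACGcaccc (chr12:103930316-103930344, minus strand)
XBP1: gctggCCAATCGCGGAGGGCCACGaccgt (chr22:28800598-28800626, minus strand)
CANX: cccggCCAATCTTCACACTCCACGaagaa (chr5:179698773-179698801, plus strand)
HSP90B1, CANX and XBP1 were named after their values were seen. HSP90B1 is the Hsp90 of the ER, CANX (calnexin) holds glycoproteins while they fold, and XBP1 is a transcription factor of the response. Their log2 fold changes were 0.68 ± 0.064, 0.80 ± 0.071 and 0.41 ± 0.077 (SE).

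Most genes downstream of ATF4 rose too. Of 27 tested, 15 were higher and 2 lower in batch 2, with a median log2 fold change of 0.40. DDIT3 (CHOP, a transcription factor of sustained stress) was at 22.4, 23.6 and 21.8 CPM in batch 1 and 52.1, 33.8 and 76.6 CPM in batch 2, a log2 fold change of 1.26 ± 0.21 (SE; adjusted p = 0.00015), with replicate 3 highest here too. SLC7A11 rose by 1.33 ± 0.20. In all 15 genes of this list that rose, replicate 3 of batch 2 was again highest and replicate 2 lowest. ATF5 and SLC7A5, the pair that fell, had log2 fold changes of -0.53 and -0.42, which became -0.10 (adjusted p = 0.138, edgeR) and 0.0073 (adjusted p = 0.917) with the offset. VEGFA, the vascular growth factor, and NDRG1, both on the list of hypoxia targets, rose by 0.88 ± 0.088 and 0.65 ± 0.072. On that list 9 of 19 genes were higher and 3 lower.

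NF-kB targets and cytokines moved in both directions, more of them upward. Of 25 tested, 13 were higher and 7 lower, with a median log2 fold change of 0.45. IL24, a cytokine of the interleukin 10 family, was at 2.52, 3.31 and 3.13 CPM in batch 1 and 15.4, 10.5 and 22.2 CPM in batch 2, a log2 fold change of 2.43 ± 0.24 (SE; adjusted p = 2.15e-06). IL1A, interleukin 1 alpha, was at 0.610, 0.700 and 0.536 CPM in batch 1 and 3.07, 1.62 and 3.59 CPM in batch 2, a log2 fold change of 2.16 ± 0.32. CXCL8 is described above. The batches did not overlap for any of the 13 genes that rose. The same held for 14 of 16 ER chaperones, 13 of 15 ATF4 genes and 21 of 23 interferon-stimulated genes that rose. A call itself favours such separation. CCL2, a monocyte chemokine, fell from 0.817 ± 0.167 to 0.149 ± 0.0667 CPM (SD, n = 3) and TNFAIP2 fell by 0.71 on the log2 scale. The cytokines CSF1 and IL1B, named after their values were seen, fell by 0.53 and 0.49. With the offset TNFAIP2 was at -0.24 (adjusted p = 0.058, edgeR) and the list counted 18 higher and 4 lower.

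Most interferon-stimulated genes rose. Of 39 tested, 23 were higher and 3 lower, with a median log2 fold change of 0.34 (24 higher and 2 lower with the offset). After RSAD2 the largest rise was that of IFI44L, at 0.853, 0.979 and 0.804 CPM in batch 1 and 4.56, 4.66 and 3.07 CPM in batch 2, a log2 fold change of 2.22 ± 0.22 (SE; adjusted p = 2.65e-06). IRF1, a transcription factor, and IFI35 fell by 0.49 and 0.44 on the log2 scale, IFI35 only without the offset (-0.089, adjusted p = 0.212, edgeR). Replicate 3 of batch 2 was highest and replicate 2 lowest in 5 of the 23 genes that rose. The letters GAAA and, after 2 further bases, GAAA, the core of the interferon-stimulated response element, were found on either strand (overlapping matches counted) in 18 of 30 promoters of the list (60.0%) and in 996 of 27305 overall (3.65%), again a property of the list. Of genes of the list that rose, 13 of 19 promoters held these letters (68.4%), and genes not called, such as BST2, held them too. Sites of 3 genes that rose are shown in the same way.
IFI44L: gtgagGAAAAAGAAAgttag (chr1:78620279-78620298, plus strand)
ISG15: aaaggGAAACCGAAActgaa (chr1:1013385-1013404, plus strand)
IFIT3: aactgGAAAGTGAAActaat (chr10:89327870-89327889, minus strand)
ISG15 and IFIT3 were named after their values were seen. ISG15 is a ubiquitin-like protein and IFIT3 an antiviral protein induced by interferon. Their log2 fold changes were 0.71 ± 0.083 and 0.41 ± 0.056 (SE).

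Most TGF-beta and BMP genes fell. Of 23 tested, 2 were higher and 14 lower in batch 2, with a median log2 fold change of -0.50, and the offset left 2 higher and 17 lower. Among ligands, BMP4 was at 519.7, 559 and 574 CPM in batch 1 and 174, 209 and 141 CPM in batch 2, a log2 fold change of -1.66 ± 0.11 (SE; adjusted p = 5.67e-08). Among targets, ID3 (an inhibitor of helix-loop-helix factors that BMP signals induce) was at 10.4, 11.1 and 10.2 CPM in batch 1 and 2.19, 3.41 and 1.82 CPM in batch 2, a log2 fold change of -2.10 ± 0.17. No library of batch 2 reached the range of batch 1 for either gene. Of genes named after their values were seen, the ligands TGFB1 and INHBA fell by 0.84 and 1.55 on the log2 scale, and the inhibitory SMAD6 by 1.60. The genes that rose were LTBP1, which tethers latent TGF-beta to the matrix (0.51 ± 0.059), and the receptor TGFBR2 (0.20 ± 0.059).

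More epithelial genes fell than rose, and the mesenchymal list was mixed. Of 16 epithelial genes tested, 2 were higher and 9 lower, with a median log2 fold change of -0.33. CDH1, or E-cadherin, which this line makes at very low levels, was at 6.58, 6.30 and 6.79 CPM in batch 1 and 0.920, 0.958 and 0.848 CPM in batch 2, a log2 fold change of -2.85 ± 0.16 (SE; adjusted p = 1.94e-08). KRT7, a keratin of simple epithelium, was at 567, 609 and 617 CPM in batch 1 and 147, 166 and 124 CPM in batch 2, a log2 fold change of -2.04 ± 0.087. Both genes were lower in every library of batch 2. OCLN and CLDN7, both of tight junctions, rose by 1.05 ± 0.12 and 0.22 ± 0.077. Of 9 mesenchymal genes 5 were higher and 3 lower. SNAI1 (Snail, a repressor of E-cadherin) fell with it, from 4.01 ± 0.214 to 0.937 ± 0.220 CPM (SD, n = 3), and CDH11 fell by 1.12 on the log2 scale. With the offset the epithelial count was 5 higher and 7 lower, with a median of -0.079, while CDH1 was at -2.89 and KRT7 at -1.45.

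Most matrix genes fell, and matrix proteases went both ways. Of 32 collagen, laminin and matrix genes 7 were higher and 20 lower, with a median log2 fold change of -0.48 and of -0.16 with the offset (10 higher and 17 lower). COL18A1, a basement membrane collagen, went from 700.3 ± 66.2 to 254 ± 28.0 CPM (SD, n = 3), a log2 fold change of -1.46 ± 0.084 (SE; adjusted p = 2.42e-08). COL4A6 changed by -1.55 ± 0.39 at under 1 CPM. LOX, which crosslinks collagen, rose from 66.8 ± 1.33 to 131 ± 20.7 CPM (SD, n = 3), a log2 fold change of 0.97 ± 0.091. Of 19 proteases and inhibitors 10 were higher and 5 lower. MMP1, interstitial collagenase, was at 9.83, 9.00 and 9.11 CPM in batch 1 and 22.7, 18.9 and 26.4 CPM in batch 2, and MMP2, a gelatinase, at 0.406, 0.606 and 0.581 CPM in batch 1 and 1.99, 2.29 and 2.30 CPM in batch 2. Both were higher in every batch 2 library, with log2 fold changes of 1.28 ± 0.12 and 2.05 ± 0.24. PLAT, tissue plasminogen activator, and MMP15 fell by 0.63 and 1.24.

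Redox and iron genes moved in both directions. Of 21 NRF2 targets 6 were higher and 10 lower, and 8 higher and 8 lower with the offset. The aldo-keto reductases AKR1C2 and AKR1C1, which reduce steroids and aldehydes, fell from 7.88 ± 1.53 to 0.534 ± 0.0615 CPM (SD, n = 3) and from 12.5 ± 0.792 to 1.47 ± 0.294 CPM (SD, n = 3), log2 fold changes of -3.87 ± 0.21 and -3.08 ± 0.14 (SE). They are close paralogs, and how reads were shared between them is uncertain. The ferritin chains, which store iron, rose. FTL went from 1743 ± 98.7 to 3269 ± 214 CPM (SD, n = 3), a log2 fold change of 0.91 ± 0.062 (adjusted p = 1.05e-07, edgeR), and FTH1 rose by 0.72 ± 0.065. Of 11 iron genes 7 were higher and 2 lower, the latter SLC40A1 (ferroportin, the iron exporter, -0.73) and STEAP3 (-0.48). Of 6 metallothionein and zinc genes tested 4 were higher and 1 lower, led by MT1X (1.02 ± 0.089) and MT1E (0.80 ± 0.056), themselves paralogs.

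Growth and housekeeping complexes shifted by small amounts. Of 30 DNA replication genes 2 were higher and 15 lower, with a median log2 fold change of -0.19. TK1 (thymidine kinase) and MCM5 (of the replicative helicase) fell by 0.70 and 0.67 on the log2 scale, TK1 to -0.11 with the offset (adjusted p = 0.14, edgeR), while POLA1 and RRM2 rose by 0.35 and 0.32, POLA1 not called with the offset. Mitotic genes had 7 higher and 7 lower of 28, and 3 higher and 8 lower with the offset. Of 59 nuclear genes of the respiratory chain 7 were higher and 31 lower, with a median of -0.17 and -0.21 with the offset. CYC1 (cytochrome c1) and NDUFB1 (of complex I) fell by 0.90 and 0.61, and COX8A and SDHC rose by 0.36 and 0.35, SDHC not called with the offset. The proteasome had 3 higher and 13 lower of 31, led downward by PSMD3 (-0.53) and PSMA7 (-0.49). Cytosolic ribosomal proteins had 33 higher and 11 lower of 77, from 0.75 for RPS12 to -0.50 for RPL17, in a family with many pseudogenes. Of 20 actin and SRF targets 3 were higher and 12 lower, with MYL9 (a myosin light chain) at -1.03 and TAGLN (transgelin) at -0.83. Of the genes named here, MYL9 alone changed by at least 1 on the log2 scale. Counts near the threshold moved with single libraries. Mitotic falls were 4 without batch 1 replicate 2, batch 1 replicate 3 or batch 2 replicate 3, and mitotic rises were 3 without batch 2 replicate 1. Leaving out batch 1 replicate 2 left 4 ribosomal and 8 proteasome falls.

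Genes of lipid and sugar metabolism moved in both directions. Of cholesterol synthesis and uptake genes 12 of 25 were higher and 7 lower, and 19 higher and 3 lower with the offset. STARD4, which carries cholesterol between membranes, and MSMO1, a demethylase of the pathway, rose by 0.75 ± 0.09 and 0.69 ± 0.086 (SE) on the log2 scale, and MVK (mevalonate kinase) fell by 0.55. MVD, the next but one enzyme, was at -0.40 without and 0.23 with the offset, DE either way, so its direction rests on that choice. Of fatty acid synthesis genes 8 of 15 were higher and 4 lower. SREBF1, the transcription factor of that pathway, went from 689 ± 85.7 to 334 ± 6.84 CPM (SD, n = 3), a log2 fold change of -1.04 ± 0.076 (-0.52 with the offset), and ACSL3 and FADS1 rose by 0.48 and 0.46. Of glycolytic genes 6 of 21 were higher and 9 lower, and 8 higher and 5 lower with the offset. The glucose transporter SLC2A3 (GLUT3) was at 69.6, 73.4 and 70.5 CPM in batch 1 and 122, 112 and 133 CPM in batch 2, higher in every batch 2 library, with a log2 fold change of 0.78 ± 0.067. PKM (pyruvate kinase) fell by 0.52, and the lactate exporter SLC16A3 was at -0.51 without and -0.0068 with the offset. Of lysosome and autophagy genes 16 of 28 were higher and 7 lower, among them MAP1LC3B, the LC3 protein of autophagosomes (0.69), against CTSZ, a cathepsin (-0.96), and TFEB, the transcription factor of lysosomal genes (-0.89).

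Growth factor pathways moved in both directions. Of the EGFR family 5 of 10 were higher and 2 lower. EREG, above, was at 10.3, 9.05 and 8.80 CPM in batch 1 and 25.1, 22.9 and 28.3 CPM in batch 2, and ERBB3, a receptor of the family, rose by 0.63 ± 0.14 (SE). NRG1 (neuregulin), which binds ERBB3, fell by 0.66 on the log2 scale. Of ERK feedback genes 4 of 11 were higher and 2 lower. SPRY4, a Sprouty inhibitor, was at 80.1, 76.5 and 79.2 CPM in batch 1 and 147, 136 and 169 CPM in batch 2, a log2 fold change of 0.94 ± 0.074 (adjusted p = 3.49e-07, edgeR). DUSP5, a phosphatase of ERK, rose by 0.81 ± 0.11, and DUSP4 fell by 0.38. In CKI-treated cells SPRY4 rose by 0.51 and DUSP5 by 0.15 (adjusted p = 0.00333, edgeR). Of insulin-like growth factor genes 5 of 10 were higher and 4 lower, with the binding proteins IGFBP1 and IGFBP3 at 0.75 and 0.71 and IGFBP4 at -1.19, from a level of 2744 ± 186 CPM (SD, n = 3) in batch 1. IRS1, the adaptor of the receptor, fell by 0.69.

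Immediate early genes went both ways, 5 of 18 higher and 8 lower, and 7 higher and 5 lower with the offset. JUND, an AP-1 subunit with a GC-rich transcript, was at -1.49 without and -0.47 with the offset, and KLF2 at -1.30 and -0.57. IER3 rose by 0.49. Of YAP and TEAD targets 3 of 12 were higher and 6 lower, with NT5E, the ecto-nucleotidase CD73, at 260.2, 241 and 242 CPM in batch 1 and 438, 459 and 420.1 CPM in batch 2. NT5E was higher in each batch 2 library, with a log2 fold change of 0.83 ± 0.057 (adjusted p = 1.07e-07, edgeR), while TGFB2 and LATS2 fell by 0.45 and 0.47. Of integrins 5 of 13 were higher and 5 lower (3 and 6 with the offset). They ran from 0.65 for ITGAV to -0.98 for ITGB2, the beta chain of leukocyte integrins. Of p53 targets 5 of 11 were higher and 3 lower, and 2 higher and 2 lower with the offset. The cell cycle inhibitor CDKN1A (p21) rose by 0.56 ± 0.077 and TP53I3 fell by 0.96, while BBC3 was at -0.59 without and 0.43 with the offset. Of clock genes 6 of 15 were higher and 2 lower. RORA and PER2 rose by 1.13 ± 0.20 and 0.73 ± 0.14, and DBP, an output gene of the clock, fell by 0.75. CYP1A1, the classic target of the aryl hydrocarbon receptor, fell by 1.07 ± 0.30, among 7 genes of which 4 were higher and 2 lower.

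HSPA6, an inducible heat shock protein, was at 1.71, 1.73 and 2.10 CPM in batch 1 and 6.13, 4.33 and 10.2 CPM in batch 2, a log2 fold change of 1.90 ± 0.28 (SE; adjusted p = 6.53e-05). It was higher in every batch 2 library, whereas of the 16 heat shock chaperones 8 were higher and 6 lower. Its change in CKI-treated cells was 2.12. Of snoRNA host genes 7 of 12 were higher and 2 lower, led by ZFAS1 (0.70 ± 0.11), and SNHG7 was at -0.56 without and 0.21 with the offset. The nuclear noncoding RNAs NEAT1 and MALAT1 were at -0.61 ± 0.071 and 1.03 ± 0.20, from libraries made with oligo(dT). Of ribosome biogenesis genes 7 of 20 were higher and 3 lower, with BOP1 at -1.12 (-0.39 with the offset) and POLR1B at 0.57. Of MHC class I genes, which include HLA genes whose reads are uncertain, 2 of 15 were higher and 5 lower (6 and 4 with the offset). B2M (the light chain) was at 0.33 and PSMB10 (of the immunoproteasome) at -0.78. Of clustered histone genes, whose copies and lack of a poly(A) tail make their counts uncertain, 6 of 25 were higher and 1 lower. Of LXR and PPAR targets 2 of 10 were higher and 4 lower, with the sterol exporter ABCG1 at -0.92.

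**Figure D3:**
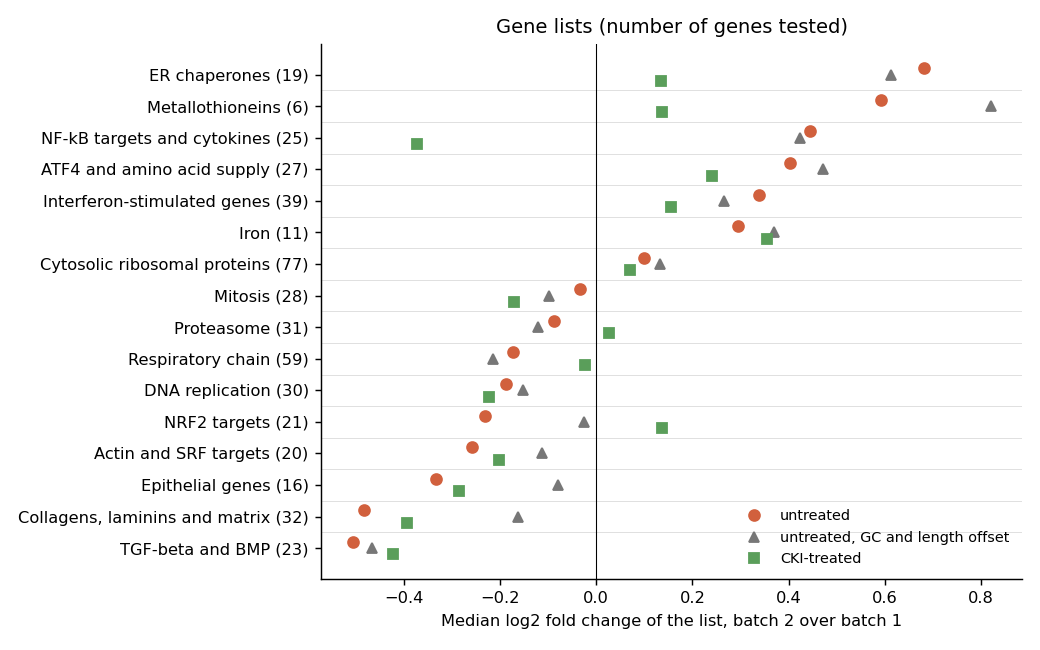
Median log2 fold change of batch 2 over batch 1 (horizontal axis) for 16 gene lists (vertical axis, number of genes tested in brackets), in untreated cells without the offset (circles) and with it (triangles) and in CKI-treated cells (squares). ER chaperones (0.68) and TGF-beta and BMP genes (-0.50) stand at the ends in untreated cells, and the NF-kB list lies at 0.45 in untreated and -0.37 in CKI-treated cells.

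The same contrast was made in CKI-treated cells at 48 h, with 3 libraries per batch that the untreated comparison did not use. There 9073 of 14489 genes were DE (62.6%), 4564 higher (31.5%) and 4509 lower (31.1%). Of 13971 genes tested in both, 6618 were called in both, 79.9% of the untreated and 74.1% of the CKI calls, and 6421 of them (97.0%) moved the same way. The Pearson correlation of the log2 fold changes across these genes was 0.80, and 0.73 across 13573 genes with both offsets (a description across genes, which are not independent replicates, in contrasts that share the GC trend). Among the leading genes, 14 of the 15 rises and 15 of the 15 falls were DE the same way. LCP1 changed by 3.39, ALPP by -3.69, ANXA8 by -2.75 and KRT7 by -2.15 on the log2 scale in CKI-treated cells. CXCL8 was the exception, at -0.13 (adjusted p = 0.107, edgeR).

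A test of the difference between the contrasts (the interaction of batch and CKI over 12 libraries) called 2048 of 14858 genes (13.8%), 978 with a more positive batch difference under CKI (6.58%) and 1070 with a more negative one (7.20%). That count fell to 260 (97 and 163) in a fit of all 54 libraries, which also changed the genes tested and the scaling. Of ER chaperones, 17 of 19 genes were called more negative and 0 more positive (7 in the fit of all 54). HSPA5 differed by -0.90 on the log2 scale (adjusted p = 0.00151, edgeR). On the common scale it was at 1253 to 1332 CPM in untreated batch 1, 2070 to 3912 in untreated batch 2, 732 to 799 in CKI batch 1 and 894 to 915 CPM in CKI batch 2. The untreated batch 2 libraries were thus the highest of the 4 groups.

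Most of the NF-kB list differed too. In CKI-treated cells 1 of 22 genes was higher in batch 2 and 14 were lower, against 13 higher and 7 lower of 25 in untreated cells, and the interaction called 15 of 25 more negative and 0 more positive (9 and 0 in the fit of all 54). CXCL8 was at 25.6 to 27.0 and 66.4 to 112 CPM in untreated batches 1 and 2, and at 21.7 to 23.3 and 19.5 to 22.1 CPM in CKI batches 1 and 2, an interaction of -1.84 (adjusted p = 6.18e-07, edgeR). MMP1 rose in untreated cells (1.28) and fell in CKI-treated cells (-0.73), an interaction of -2.03 (adjusted p = 6.29e-10, edgeR). ID3 went the other way, with log2 fold changes of -2.10 and 1.03 and an interaction of 3.10 (adjusted p = 1.20e-08). Among interferon genes 11 of 39 were called more negative under CKI and 1 more positive, and RSAD2 kept a rise of 0.65.

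**Figure D4:**
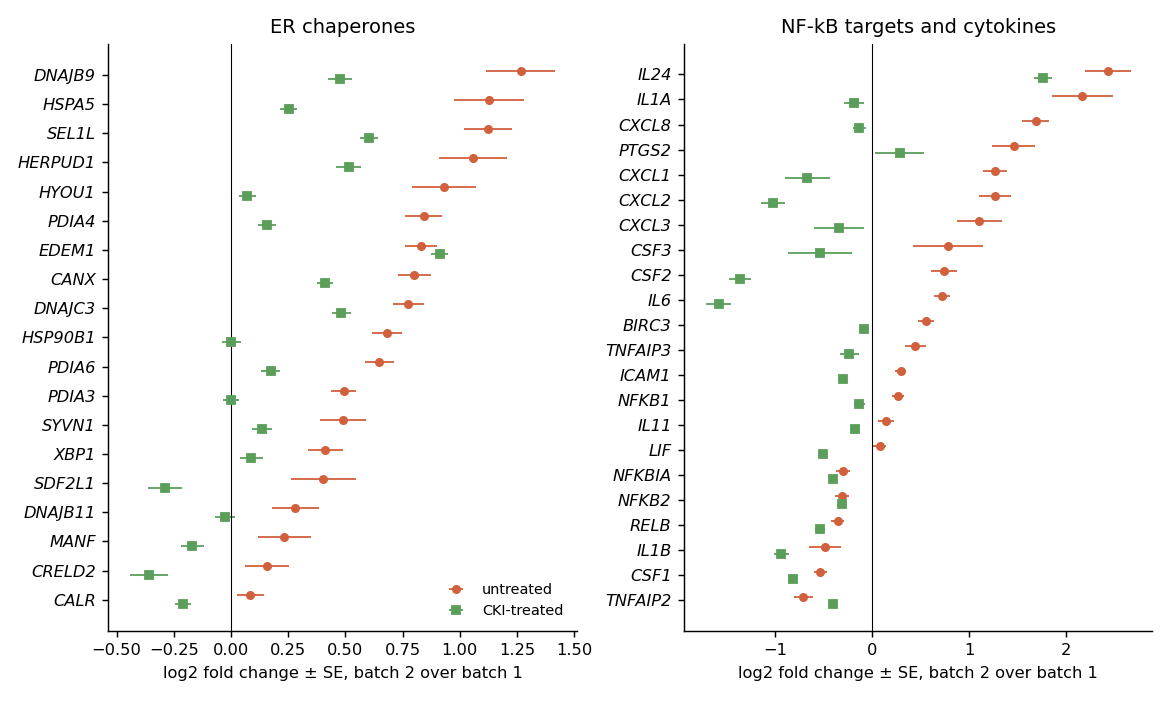
Log2 fold change of batch 2 over batch 1 with its standard error (horizontal axis) for each gene of 2 lists (vertical axis), in untreated cells (circles) and CKI-treated cells (squares), 3 libraries per batch and treatment. 18 of 19 ER chaperones and 20 of 22 NF-kB genes measured in both lie lower in CKI-treated than in untreated cells.

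Some differences were shared by neighbouring genes. Gene order was taken from RefSeq, and log2 fold changes with the offset were smoothed by the median over 21 tested neighbours. Of 23 chromosomes, the one that carries SMAD4 had the lowest median with the offset, at -0.29 over 196 genes. Of these, 104 were lower and 21 higher in batch 2. Its rank rests on the offset. Without it the median was -0.12, and other chromosomes were lower, such as the one from WASH5P to CENPBD1P1 at -0.32. The fall was strongest over the 96 genes from SLC39A6 to PARD6G, with a median of -0.45 (-0.32 without the offset). There 67 genes were lower against 4 higher. In CKI-treated cells, which were not used to find the run, the median over these genes was -0.52, and 89 of 95 were below 0. SMAD4 itself, within the run and chosen after its values were seen, changed by -0.13 ± 0.063 on the log2 scale (adjusted p = 0.083, edgeR) without the offset and by -0.40 (adjusted p = 6.91e-05) with it. SMAD2, on the same chromosome and also named after its values were seen, changed by -0.44 without the offset (adjusted p = 2.46e-05, edgeR). With the offset it was at -0.74.

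Other runs were shorter, and not all of them are named here. The 62 genes from HES4 to LINC01134 had a median of -0.36 in untreated and -0.39 in CKI-treated cells. The 50 genes from ACOT7 to FBXO6 had medians of -0.37 and -0.26. Higher in batch 2 were the 66 genes from HCG11 to ATAT1, which include HLA and zinc finger genes (0.37 and 0.35), and the 39 from PHF21A to CLP1 (0.37 and 0.38). Over all genes with the offset the median was 0.028. Without the offset the untreated medians of these runs, in the same order, were -0.80, -0.45, 0.36 and 0.20. Gene copy number was not measured, and these runs were chosen on the untreated values.

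**Figure D5:**
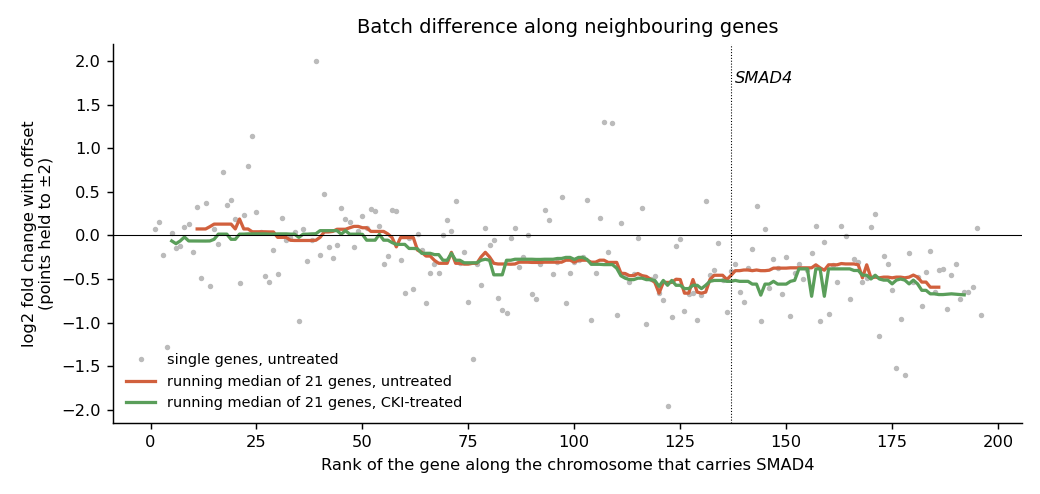
Log2 fold change of batch 2 over batch 1 with the offset (vertical axis) for the 196 tested genes of the chromosome that carries SMAD4, in their order (horizontal axis), as points for untreated cells with running medians of 21 genes in untreated and CKI-treated cells. Both lines lie near 0 over the first genes and are below 0 over the 96 genes of the last stretch, whose medians are -0.45 and -0.52. They fall below 0 before that stretch, at -0.19 and -0.21 by MIB1 (rank 64).

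Finally, a few genes typical of fibroblasts had reads only in batch 2 of these 6 libraries. DCN (decorin) had 0, 0 and 0 reads in batch 1 and 17, 15 and 14 in batch 2. POSTN (periostin) had 0, 0 and 0 reads in batch 1 and 15, 19 and 18 in batch 2. GREM1 (gremlin, a BMP antagonist that stromal cells secrete, chosen after its values were seen) had 0, 0 and 0 reads in batch 1 and 30, 22 and 19 in batch 2. Against a floor of 3 reads over the 3 batch 1 libraries together, DCN was at least 14.7-fold, POSTN at least 16.6-fold and GREM1 at least 22.7-fold higher in batch 2. CDKN2A had 3 to 5 reads per library in batch 2 and 0 in batch 1. These were low levels, the largest mean of the 3 genes being 0.971 CPM. In CKI-treated cells at 48 h all 3 genes again had 0 reads in batch 1 and 12 to 30 in each library of batch 2. In the 4 other groups of batch 2 the reads of GREM1 ranged from 0 to 28, with at most 1 in the N_Tri libraries, and in the 33 batch 1 libraries from 0 to 6.

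The other fibroblast markers went both ways. Of the 11 on the list, 6 had enough reads for a test, and 2 were higher and 4 lower. The 2 were DCN and POSTN, above. With 0 reads in batch 1 they passed the filter only through batch 2, so their direction was fixed beforehand. COL1A2 fell from 43.8 ± 0.745 to 16.5 ± 4.02 CPM (SD, n = 3) and PDGFRB from 12.9 ± 0.482 to 5.17 ± 1.10 CPM (SD, n = 3). LUM and COL1A1 changed by -0.90 and -0.34 on the log2 scale, COL1A1 by 0.043 with the offset (adjusted p = 0.673, edgeR). Among markers with too few reads for a test, 4 had more reads in every batch 2 library than in any of batch 1. COL3A1 had 0 to 5 reads per library in batch 1 and 7 to 9 in batch 2, PDGFRA 0 to 5 reads per library in batch 1 and 7 to 10 in batch 2, THY1 0 to 2 reads per library in batch 1 and 3 to 10 in batch 2 and FAP 0 to 2 reads per library in batch 1 and 4 to 5 in batch 2. TWIST2 had no reads. The summed level of the list was 73.4 to 76.1 CPM in batch 1 and 34.2 to 44.1 CPM in batch 2. Outside the list, SPARC, a matrix protein that fibroblasts also make, rose from 0.976 ± 0.345 to 2.12 ± 0.618 CPM (SD, n = 3). MMP2, above and also not on the list, rose too, whereas 4 of the 6 list genes tested fell. The growth protocol names HEK-293 cells and human foreskin fibroblasts as further cells that were grown. The part of other cells in any of these values was not tested, and in bulk RNA a different share of cells cannot be told apart from a different level per cell.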

How the data were processed

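RNA sequencing (strand-specific, oligo(dT), paired 150-base reads) was compared between 3 untreated libraries per batch. The authors' deposited values are raw counts per gene. Per the submitters' processing notes, tools included FastQC 0.11.4, Trim Galore 0.3.7, STAR 2.5.3a, Subread 1.5.2 with featureCounts, and edgeR 3.22.3, on hg19. How multiply mapped reads were counted is not given in the sources used here. From the counts, genes passing edgeR's expression filter were TMM-scaled and fitted with edgeR 4.0.16 (R 4.3.3), by quasi-likelihood with Benjamini-Hochberg adjustment at 0.05, for the untreated batches, the CKI batches and, over 12 libraries, their interaction. The model was tested on simulated counts. Replicates of a group differed by more than sampling noise, so all were kept as separate samples. DESeq2 1.42.0, other scalings and filters, and left-out replicates were alternatives. Transcript GC content and length came from GENCODE (GRCh38), and gene order and promoters from RefSeq (GRCh38.p14). Named genes were the 15 largest rises and falls without overlap at a mean of 10 CPM or more, the 2 largest called changes each way in 40 lists, genes near 0 in one batch, and 6 marker lists. Not every gene that this rule names is reported here. Members and lists were chosen with earlier results of these data known. The 13 genes of the mitochondrial genome on 1 list had no value and are not analysed here.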

Additional observations from a re-analysis of the deposited data

Results flagged for a closer look

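The batch difference itself was not the same in untreated and CKI-treated cells for 18 of the 34 leading and near-0 genes. The test was the interaction over 12 libraries (edgeR with Benjamini-Hochberg adjustment), which called 2048 of 14858 genes (13.8%) overall. The 34 were chosen for large changes in untreated cells, and the interaction subtracts those same values. The choice alone therefore favours a smaller change under CKI, and the 18 are a description only. Values below are the batch difference under CKI minus that in untreated cells, on the log2 scale. Among genes that rose, it was -1.60 for RSAD2, -1.84 for CXCL8, -1.06 for POU2F2, -1.11 for TMEM154, -0.85 for NAMPT, -0.72 for EREG, -0.66 for SLFN5 and -0.79 for ARRDC3, so that the rise was smaller under CKI for 7 of these and, for CXCL8, not called. Among genes that fell, it was 1.68 for ALPP, 1.05 for SPON2, 2.15 for AQP3, 0.74 for LMTK3, 0.55 for IRX3, 1.29 for SYT12, 0.74 for SEMA6B and 0.68 for MMP24, a smaller fall under CKI, and -0.66 for UCA1 and -0.52 for CST1, a larger one. AQP3, which fell by 2.41 in untreated cells, was at -0.24 (adjusted p = 0.0136) under CKI. In the fit of all 54 libraries, which also changed the genes tested and the scaling, 5 of the 18 were still called (RSAD2, CXCL8, TMEM154, NAMPT and AQP3), and ALPP, for example, had an adjusted p of 0.475.

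In 7 lists the interaction was called, with a lower batch difference under CKI than in untreated cells, for 50% or more of the genes tested. Over all genes tested the share called lower was 7.20%. Genes called lower numbered 17 of 19 ER chaperones, 15 of 25 NF-kB targets and cytokines and 14 of 28 mitotic genes. They also numbered 7 of 12 YAP and TEAD targets, 7 of 12 snoRNA hosts, 3 of 6 metallothionein and zinc genes and 6 of 8 markers of the line. In the YAP and TEAD, metallothionein and line marker lists, 1 gene each was called higher. Leaving out 1 library at a time gave 14 to 18 ER chaperones, 13 to 18 NF-kB genes, 11 to 18 mitotic genes, 4 to 9 snoRNA hosts and 5 to 7 markers of the line. In the fit of all 54 libraries the counts were 7 ER chaperones, 9 NF-kB genes, 4 YAP and TEAD targets, 1 snoRNA host, 1 marker of the line and 0 in the mitotic and metallothionein lists.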

How the results depend on the processing

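Counts of untreated calls stayed between 6713 (all 54 libraries in 1 fit) and 8692 (no filter on low counts) under 9 alternatives that kept all 6 libraries and the threshold, DESeq2 calling 7762. Library sizes alone gave 4973 higher and 3622 lower and moved the median log2 fold change to 0.075. Requiring a change of 1 on the log2 scale left 981 genes (241 higher, 740 lower), 835 under CKI (214 and 621) and 198 for the interaction (88 and 110). The interaction fell to 260 (97 and 163) with all 54 libraries, whose cause was not tested, and rose to 2764, with 1509 higher, under the offset. Leaving out 1 replicate gave 7200 to 8604 untreated, 8252 to 9343 CKI and 1407 to 2441 interaction calls. Same-numbered replicates deviated together with correlations of 0.021, 0.0015 and 0.010, so the numbers do not pair the samples, and with the replicate block 8313 genes were called. The block ended 1 named call, that of MSN (adjusted p = 0.0641, edgeR). Of 181 genes checked, 181 kept direction and call under RLE factors, library sizes alone, DESeq2 and no filter, 168 with all 54 libraries and 164 with the offset. The offset, chosen after seeing the data, turned SLC7A5 to 0.0073 (0.0054 with the block), COL1A1 to 0.043 (0.043), CAV1 to -0.035 (-0.037), MVD to 0.23 (0.22), BBC3 to 0.43 (0.43) and SNHG7 to 0.21 (0.21). CAV1, not called in any of these, was at -0.027 without batch 2 replicate 2 and at 0.071 without replicate 3. CLDN7 lost its call without batch 1 replicate 1 (adjusted p = 0.0730, edgeR), batch 1 replicate 2 (0.0877) or batch 2 replicate 3 (0.0861), and TGFBR2 without batch 2 replicate 1 (0.0531). With all 54 libraries respiratory chain falls numbered 13, replication falls 8, ribosomal rises 20 and falls 1, and mitotic rises 2 and falls 1, and the calls of CLDN7, POLA1, RRM2, COL1A1, CYP1A1, MALAT1, MVD and SNHG7 ended. Without batch 2 replicate 3, replication rises numbered 5 and ATF4 falls 4. Without batch 2 replicate 1, respiratory chain rises numbered 4, ribosomal falls 5 and proteasome and actin rises 1 each, and ribosomal falls were 17 without batch 1 replicate 1 and 6 without batch 1 replicate 3.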
